A study of Mus musculus with 12 samples.

Results

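The genes Btbd9, Glo1 and Dnah8 lie next to each other on mouse chromosome 17 and were examined as one block in lists of nucleosome calls from male germ cells. Its members were the calls of 6 lists whose midpoint fell in the RefSeq body of one of the 3 genes or within 1000 bp of it. These were 308 of 415758 calls, or 74.1 per 100000, at 3 of 21887 protein-coding genes. The genes were selected on these measured values, the calls per 100000 calls of the same lists by stage, so the levels and ratios below are descriptions and carry no test.

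Nucleosomes were mapped by MNase-seq in SV129 males of 8 to 12 weeks, in which micrococcal nuclease cuts the linker DNA and leaves fragments held by histones. The round spermatid fraction (RS) holds haploid cells whose histones are later replaced by protamines. The other fraction, which sample titles call meiotic spermatid and the cell preparation protocol calls meiotic, is written M here. Both were digested with 0.5, 1 or 2 U of MNase, which gave 6 groups of 2 samples. All groups shared strain, sex and tissue, and each STAPUT collection pooled the testes of 11 mice and kept fractions of at least 85% purity. RS was digested with 2 times as many cells as M at each amount. The authors made 1 list of calls from both samples of a group, so there is no spread between replicates. The lists held 27101 to 179133 calls. Nucleosome calls hold no expression values, so the stage of a fraction could not be checked against marker genes.

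Dnah8 encodes a heavy chain of axonemal dynein, the motor that bends the sperm flagellum, and is known for its expression in testis. Glo1 encodes glyoxalase 1, which with glutathione detoxifies methylglyoxal, a by-product of glycolysis. Btbd9 encodes a BTB domain protein, and variants of the human gene are linked to restless legs syndrome. A segment that includes Glo1 is known to differ in copy number between inbred mouse strains. Copy number in the mice behind each list was not analysed here.

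On GRCm38/mm10, Btbd9 spans 30215524 to 30582621, Glo1 spans 30592861 to 30612659, and Dnah8 spans 30626935 to 30875762 on chromosome 17. Their lengths are 367098, 19799 and 248828 bp, so most of the 641725 bp examined belongs to Btbd9 and Dnah8. The gene table gives neither exons nor introns, and calls were placed in gene bodies as a whole.

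Calls in the block were several times more frequent in RS than in M. From 0.5 to 2 U the block had 177, 47 and 43 calls in RS, against 4, 17 and 20 in M. Summed over amounts these were 267 of 247889 calls in RS and 41 of 167869 in M. Per 100000 calls of a list, the block held 98.8 (84.8 to 114), 113 (82.9 to 150) and 159 (115 to 214) in RS at 0.5, 1 and 2 U. In M it held 9.48 (2.58 to 24.3), 28.3 (16.5 to 45.3) and 30.5 (18.6 to 47.1). Brackets hold exact Poisson 95% intervals, which cover counting error alone and are too narrow where calls overlap their neighbours. The lowest level in RS lay above the highest in M. The genes were chosen on these levels by stage, so this separation carries no test.

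Set against M at the same amount, the block was 9.29-fold (3.64 to 23.7) higher in RS at 0.5 U, 3.91-fold (2.26 to 6.77) at 1 U and 5.14-fold (3.04 to 8.69) at 2 U. The mean log2 ratio was 2.52 (1.94 to 3.09). At equal MNase per cell, RS at 1 U stood 10.7-fold (4.07 to 28.1) above M at 0.5 U, and RS at 2 U stood 5.51-fold (3.16 to 9.60) above M at 1 U. Ratios here and below have 0.5 added to each number of calls and normal 95% counting intervals.

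**Figure D1:**
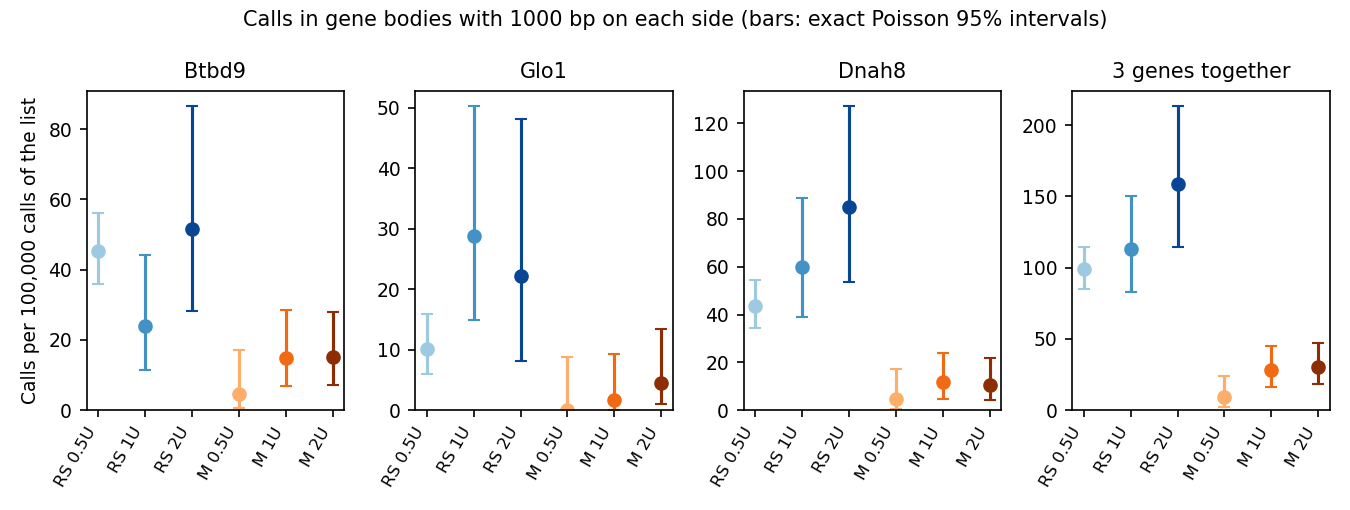
Calls per 100000 calls of a list (y axis) for Btbd9, Glo1, Dnah8 and the 3 genes together, with RS lists in blue left of M lists in orange and MNase amounts from low to high (x axis). Points are single lists and bars are exact Poisson 95% intervals. For the 3 genes together the RS points lie between 98.8 and 159 and the M points between 9.48 and 30.5.

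With more MNase the block took a larger share of each list. In RS the log2 ratio of 2 U over 0.5 U was 0.70 (0.22 to 1.17), and in M it was 1.55 (0.08 to 3.02). With 5000 bp on each side the ratio in M was 0.81 (-0.39 to 2.02), and without Dnah8 that in RS was 0.45 (-0.24 to 1.13), both with intervals that include 0. Among calls above the authors' minimum of evidence the ratios were -0.37 (-1.41 to 0.66) in RS and -1.27 (-4.19 to 1.65) in M. Both intervals include 0, so the direction without calls at the minimum cannot be told. Within RS the intervals of neighbouring amounts overlapped, and all intervals of M overlapped each other.

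Dnah8, the dynein gene, had the most calls of the 3 genes over the 6 lists together, although Btbd9 had more in M and in RS at 0.5 U. It had 78, 25 and 23 calls in RS from 0.5 to 2 U, against 2, 7 and 7 in M. Per 100000 calls these were 43.5, 60.02 and 84.9 in RS and 4.74, 11.7 and 10.7 in M. Each RS level was higher than each M level, and RS stood 7.39-fold (2.10 to 26.0), 4.90-fold (2.17 to 11.1) and 7.59-fold (3.33 to 17.3) above M. Divided into 5 equal parts along the coordinates, the gene had 17, 37, 16, 19 and 37 calls in RS and 2, 5, 2, 6 and 1 in M. Summed over amounts, each part had more calls in RS than in M, so the excess was not limited to one end of the gene. It did not hold at each amount, as part 4 at 1 U had 1 call in RS and 3 in M.

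Glo1, the glyoxalase gene, is short and had the highest density of the 3 in RS. It had 18, 12 and 6 calls in RS, against 0, 1 and 3 in M. Per 100000 calls and per Mb of gene with its flanks, its density was 461, 1322 and 1016 in RS and 0, 76.4 and 210 in M. The same densities of Dnah8 were 174, 239 and 338 in RS and 18.9, 46.5 and 42.5 in M. At 0.5 U the absence of Glo1 calls in M allows up to 7.11 calls per 100000, from 3 calls in that list, and RS had 10.05. The counting interval of that ratio, 0.525 to 145, includes 1. With 5000 bp on each side of the gene the log2 ratio at 0.5 U was 0.46 (-1.17 to 2.10), so no difference in Glo1 was detectable at this amount. At 1 U RS was 12.0-fold (2.21 to 65.4) higher and at 2 U 4.50-fold (1.23 to 16.5), from few calls in M.

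Within 1000 bp of the start of Glo1 there were 1, 3 and 0 calls in RS and none in M. At 0.5 U and at 1 U, 1 call each in RS overlapped the promoter window, which runs from 250 bases before to 50 after the start. The promoter sequence is shown because the 2 calls cover only its ends. Glo1 is read from the minus strand, and the 300 bases at chr17:30612610-30612909, from RefSeq GRCm38.p6, are given 5′ to 3′ with the bases under a call in capitals.
Glo1 promoter: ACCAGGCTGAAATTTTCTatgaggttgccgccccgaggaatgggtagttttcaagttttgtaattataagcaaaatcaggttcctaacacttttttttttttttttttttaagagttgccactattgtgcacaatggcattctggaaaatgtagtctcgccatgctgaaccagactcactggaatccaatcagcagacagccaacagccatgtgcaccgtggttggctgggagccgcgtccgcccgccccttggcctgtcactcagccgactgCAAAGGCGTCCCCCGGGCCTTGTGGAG
The 18 capitals at the 5′ end belong to the call of RS at 0.5 U, whose p-value implies 6 reads and whose centre lies 303 bp upstream of the gene start. The 27 capitals at the 3′ end belong to the call of RS at 1 U, with 7 implied reads and its centre 92 bp inside the gene. The bases between them lay under no call in any of the 6 lists. The promoter holds 11 CpG dinucleotides, 2 of them under a call, and the median over 32851 RefSeq promoters of this length is 7. The promoter window of Dnah8 overlapped no call in any list. With so few calls the stages cannot be compared at a single promoter.

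Btbd9, the BTB domain gene, differed within itself. Over the whole gene it had 81, 10 and 14 calls in RS, against 2, 9 and 10 in M. Per 100000 calls these were 45.2, 24.0 and 51.7 in RS and 4.74, 15.0 and 15.2 in M. RS stood above M by 7.68-fold (2.18 to 27.0) at 0.5 U and 3.34-fold (1.51 to 7.40) at 2 U, while at 1 U the 1.59-fold difference had an interval that includes 1 (0.663 to 3.83). Among calls above the authors' minimum the log2 ratio at 1 U was -0.34 (-2.57 to 1.89), and at 2 U neither stage had a call in Btbd9. In 5 equal parts, the 3 farthest from Glo1 had 3, 8 and 2 calls in RS and 1 each in M. The 2 parts nearest to Glo1 had 37 and 53 calls in RS and 14 and 4 in M. The excess in RS did not hold at each amount. At 1 U the former of these parts had 2 calls in RS and 7 in M, and the latter had 7 and 1. The calls of Btbd9 thus lay mostly in the part of the gene that adjoins Glo1, in both stages.

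The extent of the dense stretch was then read from RS at 0.5 U alone, as the pair of call midpoints that best separates a denser stretch from 2 Mb on each side. This choice was made after the data were seen. The segment ran from 30448237 to 30920664, over 472428 bp. It begins inside Btbd9, holds the whole of Glo1 and Dnah8, and ends inside Glp1r, the receptor gene for the incretin hormone GLP-1, at 30901867 to 30936510. Calls in it numbered 188, 61 and 48 in RS from 0.5 to 2 U, and 6, 21 and 23 in M. The 2 RS lists and 3 M lists that did not set its limits are set against their own surroundings below. The genes inside the segment were chosen on calls of all 6 lists, so these folds too are descriptions.

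Per 100000 calls and per Mb, the segment held 222, 310 and 375 in RS, and the 1 Mb on each side of it together held 18.7, 38.4 and 25.8. The segment was thus 11.9-fold denser than its flanks in RS at 0.5 U, a value fixed by the choice of its limits in that list and given with no interval. It was 8.07-fold (5.26 to 12.4) denser in RS at 1 U and 14.5-fold (8.00 to 26.3) at 2 U. In M it held 30.1, 74.0 and 74.2, and its flanks held 9.48, 17.5 and 17.5. That is 3.18-fold (1.10 to 9.15), 4.23-fold (2.31 to 7.75) and 4.23-fold (2.38 to 7.55) denser than the flanks. In the lists that did not set its limits, the segment was denser than its flanks at 1 U and 2 U in both stages. For M at 0.5 U the interval includes 1 with flanks of 500 kb (2.12, 0.683 to 6.56) and with merged calls (3.39, 0.909 to 12.6). Above the authors' minimum the segment had 3, 6 and 1 calls in M against 5, 1 and 6 in the flanks. At 2 U the fold was then 0.706 (0.0849 to 5.86).

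**Figure D2:**
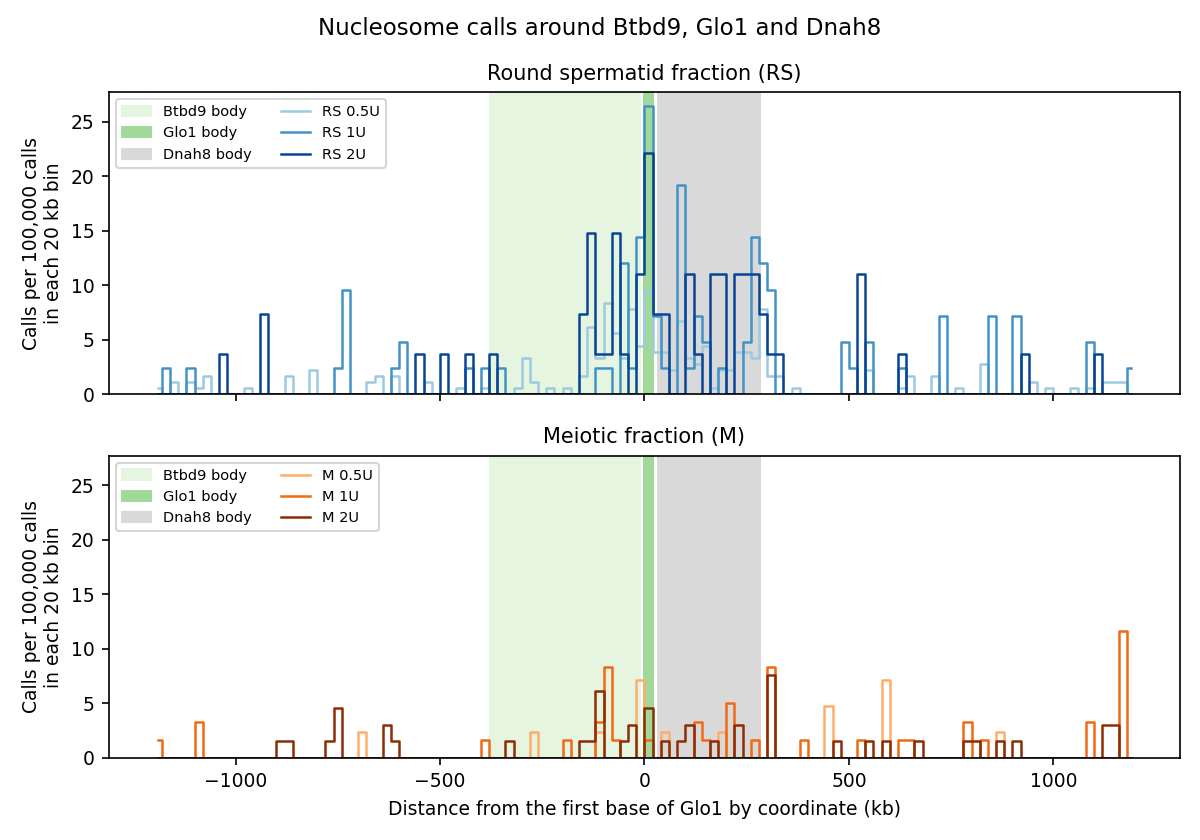
Calls per 100000 calls in bins of 20 kb (y axis) by distance from the lowest coordinate of Glo1 in kb (x axis), with RS lists above and M lists below and the gene bodies shaded. In RS the raised stretch begins inside Btbd9 and reaches past Dnah8. In M the stretch as a whole is lower at each amount, while single bins, such as that at -110 kb for M at 2 U, are higher than in each RS list.

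The flanks also had more calls per 100000 in RS than in M, so the stage difference of the segment was set against theirs. At 0.5 U the choice of limits fixed the comparison, so only 1 U and 2 U are given. The genes were chosen on the calls of these lists as well, so the differences carry no test. The log2 ratio of RS over M in the segment was 2.04 (1.34 to 2.75) at 1 U and 2.32 (1.61 to 3.03) at 2 U. In the flanks it was 1.12 (0.34 to 1.91) and 0.58 (-0.37 to 1.52). The excess of the segment over its flanks was larger in RS than in M by a log2 of 0.93 (-0.14 to 2.00) at 1 U and 1.78 (0.58 to 2.97) at 2 U, with a mean of 1.35 (0.55 to 2.16). The interval at 1 U includes 0. Within the segment the stages were not equally far apart. Between Dnah8 and its end it held 178, 437 and 252 calls per 100000 per Mb in RS and 0, 190 and 174 in M, from 14, 8 and 3 calls in RS and 0, 5 and 5 in M.

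**Figure D3:**
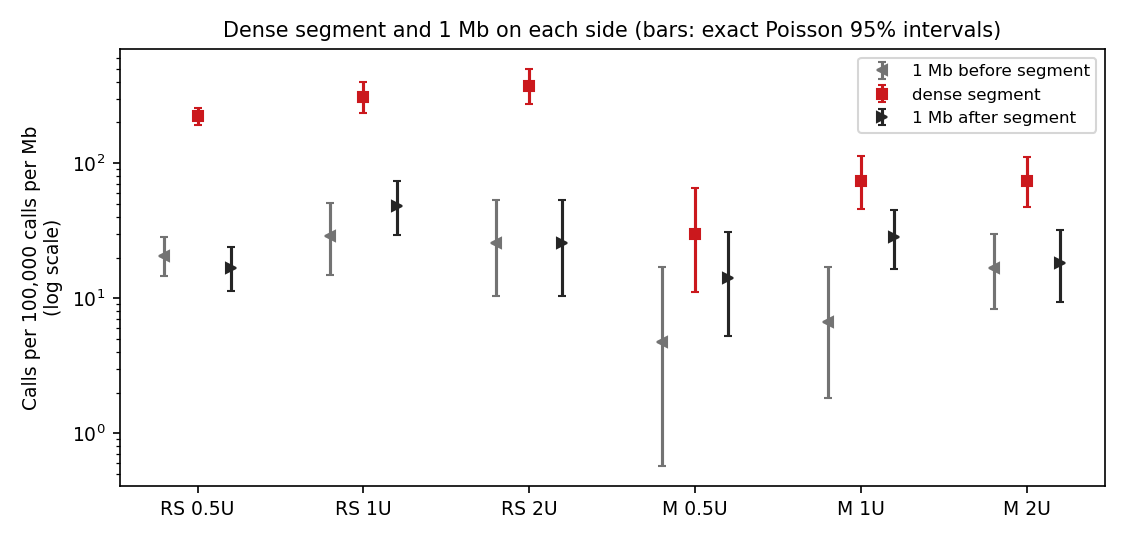
Density in calls per 100000 calls per Mb on a log scale (y axis) for the dense segment and the 1 Mb before and after it, in the 3 RS and then the 3 M lists (x axis), with exact Poisson 95% intervals. The limits of the segment were set on RS at 0.5 U, so that its height there is fixed by the choice, and the segment lies at 222 to 375 in RS and at 30.1 to 74.2 in M, above both flanks in each list.

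Calls are a tail above a minimum number of reads, so their density changes more steeply than coverage. The p-values matched Poisson tails with a minimum of 6 reads in each list. Under that model, the segment had 1.38, 1.45 and 1.51 times the mean coverage in RS and 0.956, 1.12 and 1.12 times in M. Relative to its flanks it had 1.59, 1.46 and 1.61 times the coverage in RS and 1.23, 1.29 and 1.30 times in M. These are values of the model, not measured coverage, and on that scale the stages differ far less than in calls.

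The block was set beside all other genes to see how common such stage differences were. Among protein-coding genes with at least 10 calls in the 2 lists together, 31.0% were at least 2-fold higher in RS at 0.5 U, 12.3% at 1 U and 13.3% at 2 U. Genes at least 2-fold lower in RS made up 10.9%, 15.9% and 24.2%, and no member was among them. Btbd9 and Dnah8 were past this fold at 0.5 U and 2 U, and Dnah8 also at 1 U. Glo1 was past it at 1 U, and at 0.5 U through the added 0.5 call alone. Its 9 calls at 2 U fell short of the minimum. At 0.5 U, 330 of the 1705 genes had 0 calls in M, and with such zeros set to 3 calls 21.5% were past the fold. Of 937 genes with at least 30 calls over the 6 lists, 9 (0.961%) were at least 2-fold higher in RS at each amount, and Glo1 and Dnah8 were among them. With zeros set to 3 calls, 13 genes (1.39%) passed and Glo1 did not. The members entered this count through the measure that chose them, so nothing is read from it about the block.

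**Figure D4:**
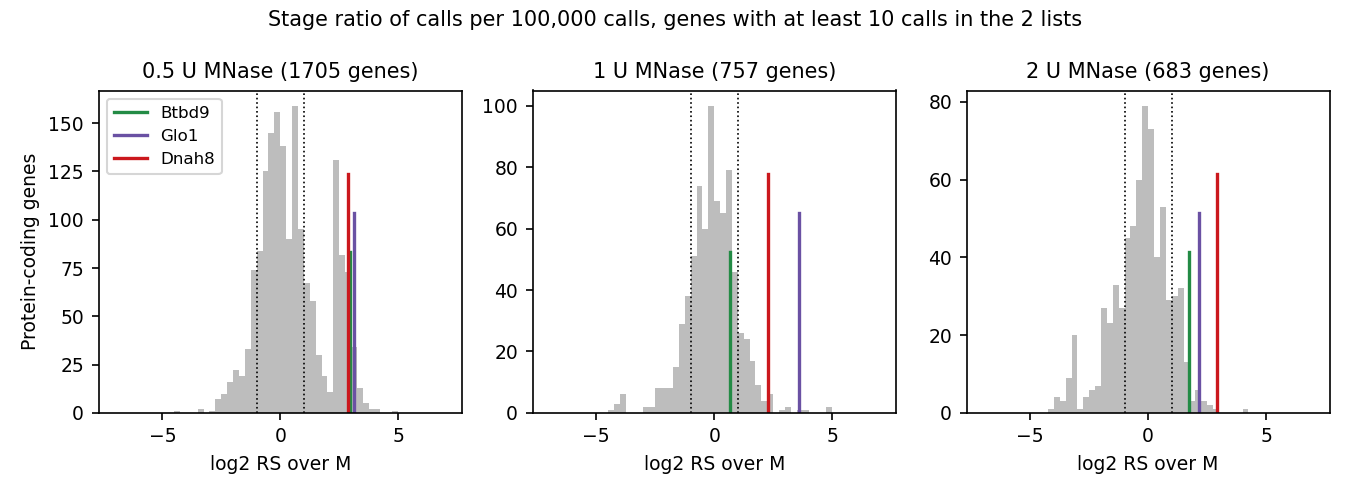
Number of protein-coding genes (y axis) by log2 ratio of RS over M (x axis) at 0.5, 1 and 2 U, for genes with at least 10 calls in both lists together, with the members as coloured lines and 2-fold as dotted lines. The separate bars near the members at 0.5 U are largely genes with 0 calls in M, placed by the added 0.5 call. Glo1 rests on such a zero at 0.5 U and on 9 calls at 2 U.

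By density alone, Dnah8 ranked 3rd, 3rd and 2nd in RS from 0.5 to 2 U among 945 autosomal genes of at least 200 kb. Btbd9 ranked 4th, 54th and 5th. In M Dnah8 ranked 598th, 212th and 284th and Btbd9 661st, 292nd and 298th. At least 2 times the autosomal density was reached by 0.741%, 3.17% and 5.19% of these long genes in RS and by 4.34%, 2.54% and 3.92% in M. Dnah8 passed that mark in all 3 RS lists and Btbd9 at 0.5 U and 2 U, and neither did in M. In M both genes lay near or below the density of the autosomes, between 0.330 and 1.18 times. Both were chosen on the calls of these lists by stage, so their ranks are descriptions and add no separate support.

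On a fixed grid of 500 kb tiles, the tile from 30500001 to 31000000 was taken because it holds Glo1. It covers all of Glo1 and Dnah8 and part of Btbd9, so its values follow from the choice of genes and add no separate support. It held 166, 59 and 42 calls in RS and 5, 17 and 18 in M. By number of calls it ranked 35th, 38th and 37th of 4930 autosomal tiles in RS, and 2596th, 498th and 525th in M. Against the mean of the 2 tiles on each side it was 7.01, 6.80 and 7.39 times as dense in RS, where 2.24%, 9.19% and 13.8% of tiles reached 2 times. In M it was 2.00, 2.59 and 2.39 times as dense, where 11.0%, 7.77% and 7.22% of tiles reached 2 times. Of 4683 tiles with at least 30 calls, 69 (1.47%) were at least 2-fold higher in RS at each amount, this one among them. By mean log2 ratio it ranked 13th of all 4683 tiles. At single amounts 25.0%, 12.8% and 13.3% of tiles were past that fold.

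Neighbouring genes had few calls. The 33 other protein-coding genes within 1 Mb of the block had 80 calls in RS and 34 in M together, and 8 of them had none in any list. The highest number at a single neighbour in 1 list was 5. Zfand3, next to the far end of Btbd9, had 8 calls in RS and 1 in M. Glp1r, on the side of Dnah8, had 10 in RS and 6 in M. Mdga1, which encodes a cell adhesion protein, had 5 and 3, and the phosphodiesterase gene Pde9a had 8 and 4. Most neighbours are short, and by density single ones reached the level of members from few calls. Tff3, which encodes a trefoil peptide, held 1755 calls per 100000 per Mb in RS at 2 U, from 3 calls in a window of 6306 bp, and none in the other lists. Mdga1 held 192 in RS at 1 U and none at 0.5 U or 2 U. Glp1r, which lies partly inside the dense segment, held 76.2, 197 and 201 in RS and 0, 45.4 and 208 in M, so that at 2 U it was not higher in RS.

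The calls of the block were spread over many places. Joined where midpoints lay within 73 bp, they formed 190 positions, of which 181 were called in 1 list and 9 in 2 lists, and no position was called in 3 or more. RS alone had 159 positions, M alone had 26, and 5 were seen in both. A call of the other stage lay within 73 bp of 1.13%, 4.26% and 6.98% of block calls in RS. The shares of autosomal calls outside dense places were 3.48%, 6.62% and 7.81%. For block calls in M they were 0, 17.6% and 15.0%, against 7.05%, 6.80% and 6.48%. The counting intervals of these block shares include the autosomal shares, so nothing is read from the split of positions by stage. Of the calls in RS, 3.95% (1.605 to 7.98), 8.51% (2.37 to 20.4) and 14.0% (5.30 to 27.9) had a call of another list within 73 bp, against 4.46%, 9.68% and 11.4% of autosomal calls outside dense places. In M the shares were 0 of 4 calls (up to 60.2%), 17.6% (3.80 to 43.4) and 15.0% (3.21 to 37.9), against 9.21%, 8.94% and 8.44%. Each interval includes the autosomal share. These intervals treat overlapping calls as separate and are too narrow. Within 20 bp, 0 of 177 calls of RS at 0.5 U had a call of an M list, against 2.22% of autosomal calls. Those 177 calls form 105 positions, so no limit is given and no difference is read from it.

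Positions called in both of a pair of RS lists numbered 4, all in Dnah8. One of them, from 30701422 to 30701631, was called at 0.5 U and 2 U, and another, from 30875067 to 30875326 near the last base of the gene, at 0.5 U and 1 U. Of the 5 positions seen in both stages, 1 lay in Btbd9, 2 in Glo1 and 2 in Dnah8. In Glo1, positions from 30600067 to 30600251 and from 30604172 to 30604363 were called in 1 RS and 1 M list each.

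Single calls of the block carried modest evidence. The highest number of implied reads was 10, at 1 call of RS at 0.5 U in Glo1 and 1 of RS at 1 U in Dnah8. In M the highest was 9, in Btbd9. Calls at the minimum of 6 reads made up 63.3% (55.7 to 70.4), 70.2% (55.1 to 82.7) and 81.4% (66.6 to 91.6) of block calls in RS, against 70.3%, 71.2% and 70.5% of other autosomal calls. In M they made up 50.0% (6.76 to 93.2), 64.7% (38.3 to 85.8) and 95% (75.1 to 99.9), against 67.7%, 70.6% and 69.9%. The interval of M at 2 U lay above the autosomal share, and the others included it. There 19 of the 20 calls stood at the minimum. These calls form 16 positions, and intervals that treat overlapping calls as separate are too narrow. No block call lay in a 10 kb bin with more than 20 calls in any list.

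Genes related to the members by function were counted from 3 lists. All 16 other dynein heavy chain genes had calls, 229 in RS and 99 in M. Of these, 11 had more per 100000 calls in RS and 5 more in M, so 68.8% had more in RS, against 60.2% of all protein-coding genes with calls. The 10 with at least 10 calls had a median mean log2 ratio of 1.04, against 0.19 over 2973 genes with as many calls, and with zeros set to 3 calls the medians were 0.54 and 0.20. Dnah7c had 16 calls in RS and 1 in M, Dnah14 had 15 and 0, and Dnah12 had 13 and 1. Dnah3 had 23 and 6, Dnah7a had 21 and 5, and Dnah5, of the outer dynein arm, had 36 and 17. Dnah9 with 50 and 32, Dnah11 with 22 and 18, and Dnah6 with 7 and 5 had more calls in RS by number alone. The RS lists are larger in sum. Mean log2 ratios of these genes were -0.45, -0.07 and -0.32, so none was higher in RS by that measure. Dync2h1, the motor of transport within cilia, had 10 and 11. Dnah7c, Dnah14 and Dnah12 were, like Dnah8, at least 2-fold higher in RS at each amount, each with lists at 0 calls in M and so through the added 0.5 call. Of the 3 with at least 30 calls none was, against 0.961% of all 937 such genes. Among all genes with at least 10 calls the share was not counted, so nothing is read from Dnah7c, Dnah14 and Dnah12. Dnah7a and Dnah7c are close copies, between which reads may have been split.

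The 12 genes around methylglyoxal and glutathione had 11 calls in RS and 4 in M, too few for any single gene to reach 10. Of the 8 with calls, 7 had more in RS per 100000 calls and 1 more in M. That is 87.5% higher in RS, against 60.2% of all protein-coding genes with calls. The 15 genes of the Btbd family and its partners had 64 calls in RS and 37 in M. The RS lists held 247889 calls in sum and the M lists 167869, so these totals alone show no stage difference. Per 100000 calls, 6 were higher in RS, 5 were higher in M and 4 had no calls. Of those with calls 54.5% were thus higher in RS, against the same 60.2%. Their members with at least 10 calls were Btbd11 with 31 in RS and 17 in M and Abtb2 with 9 and 12, and the median mean log2 ratio of this pair was -0.23 (-0.31 with zeros set to 3 calls). Counts in these lists are of few calls and are given as descriptions.

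Genes elsewhere with a profile like that of the block were sought over the 6 lists by Euclidean distance of log2 density, among 934 genes with at least 30 calls. Nearest were Garem1 at 2.08, Gm5622 at 2.28, Peak1 at 2.35, Col4a2 at 2.504 and Dclk2 at 2.72. Garem1 had 45 calls in RS and 25 in M, and Col4a2, a basement membrane collagen gene, had 26 and 6. Mean log2 ratios of RS over M were 1.04, 1.16, 0.78, 1.62 and 0.49 in the order of distance. All lay below the 2.52 of the block, so a near profile did not mean a like stage difference. For comparison the distance to the block was 0.86 for Dnah8, 1.63 for Btbd9 and 5.10 for Glo1. No gene outside the block came as near to it as Dnah8 and Btbd9, which are themselves most of it.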

How the data were processed

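MNase-seq lists of nucleosome calls were analysed for 12 samples in 6 groups of 2. Per the labels' protocols, cells were digested for 7.5 min at 37 °C. STAR 2.5.2a and the build GRCm38/mm10 are listed, without a stated role, in the submitters' processing notes. The nucleosome caller is not given in the sources used here. The authors deposited, for each group, intervals of 140 bp with a p-value per call, made from both replicates together per the design text, and no read counts. The number of reads behind a list is unknown, and with most calls at the minimum 1 read decides the presence of a single call.

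Calls were represented by start plus 70 bp and counted over RefSeq gene bodies of the same build with 1000 bp on each side, per 100000 calls of the list. Genes were called at 2-fold, with at least 10 calls in both lists together. Implied reads are the Poisson tails, searched over minimum counts, that match the 8 largest distinct p-values of a list, with natural logarithms that differ by at most 1.11e-11. Density of the autosomes is calls per bp between first and last call. The gene table was searched by symbol, and all list members matched. Python 3.11.15, numpy 2.4.6, pandas 2.3.3 and scipy 1.17.1 were used, and counting was tested on simulated data. The members and lists were chosen with earlier results of these data known. Named genes were the members, neighbours within 1 Mb, list genes with at least 10 calls, and the 5 nearest profiles, with a few neighbours given as examples. The alternatives were windows, merged calls, calls above the minimum, denominators, single members and single amounts left out. No test between stages was made, as each group has 1 list.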

Additional observations from a re-analysis of the deposited data

How the results depend on the processing

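The log2 ratio of RS over M in the block stayed above 0 under each alternative tried, from 2.42 to 3.23 at 0.5 U, 1.63 to 3.42 at 1 U, 1.88 to 3.70 at 2 U and 2.16 to 2.94 for the mean, which without 0.5 U was 2.16. It left its counting interval with calls above the minimum at 2 U (3.70) and at equal MNase per cell for RS at 1 U over M at 0.5 U (3.42). With calls above the minimum the log2 ratio of 2 U over 0.5 U was -0.37 (-1.41 to 0.66) in RS and -1.27 (-4.19 to 1.65) in M. Both intervals include 0. With calls above the minimum the block held 119 per 100000 in RS at 0.5 U, 86.9 in RS at 2 U and 4.74 in M at 2 U. These were 4.66, 4.04 and 0.199 times the autosomal density. The segment was then 25.4 times as dense as its flanks in RS at 0.5 U, a value fixed by the choice of its limits. In RS at 1 U it was 26.8 times (7.93 to 90.6) as dense, from 19 calls against 3 in the flanks. In M it was 25.4 times (3.06 to 211) at 1 U, from 6 calls against 1. At 2 U in M it was 0.706 times (0.0849 to 5.86), from 1 call against 6. Other flank widths and merged calls were alternatives chosen after seeing the data. They left the folds of the segment over its flanks within the intervals obtained with all calls and 1 Mb flanks. For M at 0.5 U the fold's own interval then included 1 with 500 kb flanks and with merged calls. The ratio of 2 U over 0.5 U in M had an interval including 0 with 5000 bp on each side (0.81), merged calls (1.24), without Glo1 (1.32), without Dnah8 (1.80) and without Btbd9 (1.43), and in RS without Dnah8 (0.45). For Btbd9, calls above the minimum gave a log2 ratio of RS over M of -0.34 at 1 U and a mean of 1.13 (-1.04 to 3.31). Without Dnah8 the block held 55.3, 52.8 and 73.8 per 100000 in RS from 0.5 to 2 U. Without Btbd9 it held 53.6 in RS at 0.5 U, 107 in RS at 2 U, 13.3 in M at 1 U and 15.2 in M at 2 U, and its density over the autosomes was 4.81, 8.30 and 10.2 in RS. The lower calls per 100000 follow from the fewer bases counted. Genes at least 2-fold higher in RS numbered 528, 93 and 91 from 0.5 to 2 U, and 1589, 380 and 311 with a minimum of 5 calls, 144, 14 and 31 with 20, and 113, 9 and 16 with calls above the minimum. Those 2-fold lower numbered 185, 120 and 165, and 499, 390 and 462, then 62, 25 and 51, then 58, 15 and 17. Within 20 bp, 0.565% (0.0143 to 3.11) of block calls of RS at 0.5 U had a call of another list, against 2.85% of autosomal calls. For M at 1 U it was 0 of 17 calls (up to 19.5%), against 6.33%. Both intervals include the autosomal share. Calls on chromosome 17 as denominator were used for ratios and densities but not for calls per 100000 calls, which they would redefine. No paired analysis was possible because each list was made from both replicates. The cause of the other changes was not tested. Depth limits single genes, since M held 41 calls in the block.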
